A study of Mus musculus with 8 samples.

Results

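The odorant receptor (OR) genes beside the major histocompatibility complex (MHC) on mouse chromosome 17 carry the symbols Olfr90 to Olfr137. A gene of this range was taken as a member when the array held a transcript cluster, meaning the pooled probe sets of a gene's exons, that named this OR gene and no other. That gave 39 OR genes of 19928 genes tested, against 976 other OR genes. Of the 48 numbers in the range, 9 had no cluster of their own: Olfr98, Olfr100, Olfr102, Olfr126, Olfr128 and Olfr135 were measured only in clusters shared by several genes, and 104, 105 and 106 belong to pseudogenes. By the RefSeq gene table all 39 lie on chromosome 17, and the order of their numbers is their order on the chromosome except for 1 inversion at Olfr136 and Olfr137.

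The mRNA was measured in olfactory mucosa of neonatal mice at postnatal day 3, on 8 Affymetrix arrays with 1 mouse each. The 4 conditional knock-out mice (cKO) were 123Cre:Lhx2(fl/fl), and of the 4 littermate controls, controls 1 and 2 were Lhx2(fl/+) and controls 3 and 4 were 123Cre:Lhx2(fl/+). All were of a mixed 129 x C57BL/6J background, all carried at least 1 floxed Lhx2 allele, and both sexes were used in the study. The 123Cre transgene starts Cre recombinase in immature olfactory sensory neurons (OSNs). It deletes the exons at the start of Lhx2, which encodes a transcription factor with LIM domains and a homeodomain. The deletion is partial, basal cells are not targeted, and many OSNs of the cKO mice still hold Lhx2 mRNA by the study's tissue sections. Arrays are numbered within a group in the order of deposit, and the numbers pair nothing.

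Each mature OSN transcribes 1 allele of 1 OR gene, so the abundance of an OR mRNA in whole mucosa follows how many OSNs chose that gene and how much mRNA each of them holds. In such bulk samples fewer cells and less RNA per cell cannot be told apart. OR genes lie in clusters spread over the genome. The cluster treated here is the MHC-linked one: its genes are interspersed with non-classical MHC class I genes of the H2-M family, and an OR cluster beside the MHC is also found in humans. The members belong to several older MOR families, 15 of them to MOR256, 7 each to MOR218 and MOR263, 4 to MOR156 and 3 to MOR250. Olfr96 (MOR121), Olfr110 (MOR249) and Olfr111 (no family name in the table) stand alone. Olfr124, also called SR1 or MOR256-3, is known as the dominant receptor of the septal organ and answers to many odorants.

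OR promoters are known for homeodomain sites, which Lhx2 can bind, and for O/E sites, which proteins of the Ebf family bind. The RefSeq promoter table of GRCm38.p6 held 31 of the 39 members, and the 250 bases before each gene start were searched on both strands for the homeodomain strings TAATTA and TAATGA and the O/E-like string CCCNNGGG. The 4 MOR156 members share a stretch in which these strings come and go by few bases, and it is shown for that reason. Matched strings are in capitals.

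Olfr97, chr17:37232523-37232552, minus strand: tctcccttgagaatcatttttaataaactc

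Olfr99, chr17:37280579-37280608, minus strand: tctCCCTAGGGagccattttTAATGAactc

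Olfr107, chr17:37405359-37405388, plus strand: tctctctagggagccattttTAATGAactc

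Olfr108, chr17:37445370-37445399, plus strand: tctCCCTAGGGagacattttTAATGAactc

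Of the 30 positions, Olfr107 and Olfr108 each shared 29 with Olfr99, and Olfr97 shared 25. The stretch began 184 bases before the gene start in Olfr97, 190 in Olfr99, 118 in Olfr107 and 110 in Olfr108. In Olfr97 and Olfr99 the gene model starts at the start codon, so that the distance to the true start of transcription is not known there.

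The whole 250 bases are given for Olfr107, the member with the second smallest p below, and for Olfr90, which the study also assayed in tissue sections. Their gene models begin before the start codon.

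Olfr107, chr17:37405227-37405476, plus strand: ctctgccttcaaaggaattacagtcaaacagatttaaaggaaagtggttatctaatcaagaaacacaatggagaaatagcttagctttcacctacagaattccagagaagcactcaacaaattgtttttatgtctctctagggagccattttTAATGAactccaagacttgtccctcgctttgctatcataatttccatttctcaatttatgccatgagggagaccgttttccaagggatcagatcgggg

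Olfr90, chr17:37086237-37086486, minus strand: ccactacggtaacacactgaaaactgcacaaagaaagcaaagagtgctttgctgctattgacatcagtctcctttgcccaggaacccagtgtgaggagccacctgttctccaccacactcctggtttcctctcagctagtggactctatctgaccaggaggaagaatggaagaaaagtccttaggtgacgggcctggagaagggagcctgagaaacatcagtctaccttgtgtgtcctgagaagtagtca

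Olfr107 held 1 TAATGA, 98 bases before its start, and Olfr90 held no match. A homeodomain string stood in 11 of the 31 windows of members (35.5%), in 37.7% of 832 windows of other OR genes and in 12.7% of all 27025 windows. CCCNNGGG stood in 2 of the 31, those of Olfr99 and Olfr108 (6.45%), against 2.52% of the other OR genes and 11.7% of all windows. In 19 of the 31 windows the gene model starts at the start codon, and its window then need not be the promoter.

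The arrays were compared first on the targeted gene. Lhx2 read 13.03, 12.55, 13.01 and 13.02 in cKO mice 1 to 4 and 13.14, 13.09, 13.20 and 13.13 in controls 1 to 4, on the log2 scale, a difference of -0.24 (SE 0.11, adjusted p 0.337 by limma). This cluster also holds probe sets outside the deleted exons, and Lhx2 is expressed in basal cells, so that it does not measure the deletion alone. The mean of 20 mature OSN markers lay between 12.07 and 12.15 in the controls, and against their mean the cKO arrays 1 to 4 read -0.50, -1.12, -0.57 and -0.63. Omp, the marker of mature OSNs, fell by 0.97 (SE 0.14, adjusted p 0.00605). Gap43, the marker of immature OSNs, differed by -0.29 (adjusted p 0.268) and Emx2, another homeodomain factor, by -0.04 (adjusted p 0.756). Without cKO 2 the difference was -0.12 in Lhx2 and -0.16 in Gap43. The array of cKO 2 stood apart with the lowest Lhx2, Omp and mature marker values of all 8.

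All 39 chromosome 17 OR genes had a lower mean in the cKO mice, as had 970 of the 976 other OR genes and 7503 of all 19928 genes. Of the 39 members, 14 fell at an adjusted p under 0.01 and 0 rose (limma, Benjamini-Hochberg over all 19928 genes). Those 14 are 35.9% of the members, where 2.07% of all genes and 29.9% of the other OR genes fell. At an adjusted p under 0.05, 29 members passed, where the share was 5.17% of all genes and 66.6% of the other OR genes. In 35 members every cKO array lay below every control array, which held for 8.43% of all genes and 79.9% of the other OR genes. The shares of members were thus near those of the other OR genes under all 3 criteria, and whether they differ was not tested. The count of 14 moved with single arrays: it was 14, 20, 0 and 1 without cKO 1 to 4 and 0, 0, 2 and 0 without controls 1 to 4. All 14 passed at 0.05 in each of these 8 fits. By a t-test the count was 0 after adjustment over all genes. That t-test was run on the deposited values, without the study's normalization to mature OSNs, so it does not repeat the study's procedure.

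The median difference of the 39 members was -0.89 on the log2 scale, or 54.1% of the control level, with quartiles of -1.01 and -0.59. For the other OR genes the median was -0.86, and for all genes 0.03. The members ranged from -1.55 in Olfr136 to -0.24 in Olfr94. The 14 that fell were left with 34.2% to 70.2% of their control level.

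**Figure D1:**
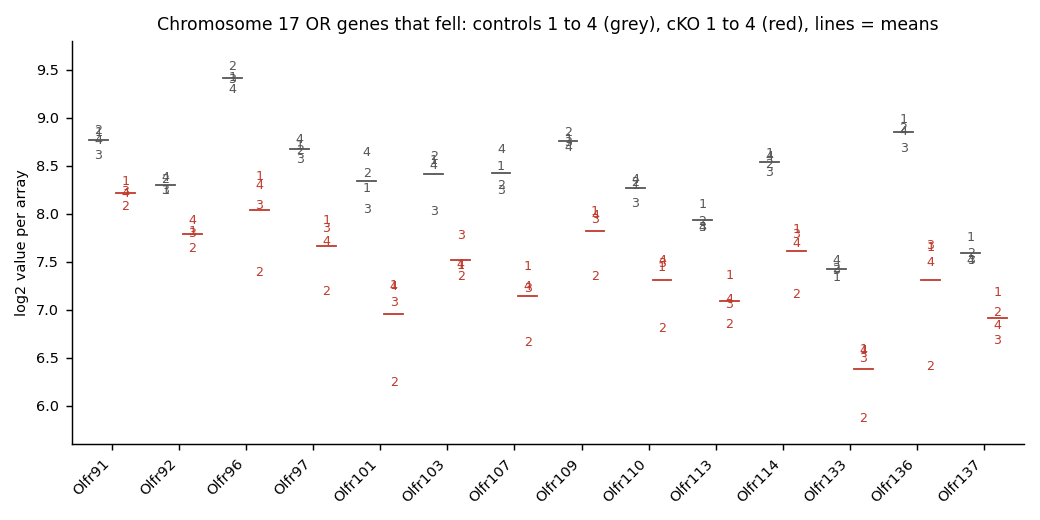
Log2 value on each array (y axis) of the 14 chromosome 17 OR genes that fell at an adjusted p under 0.01 (x axis). Grey digits are controls 1 to 4, red digits cKO mice 1 to 4, and lines are group means. All red digits lie below all grey digits of the same gene, and cKO 2 is the lowest in every gene shown except Olfr137. Heights of different genes are not comparable, since each has its own probes.

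The single members are described by family, beginning with the numbers that head the cluster. The values of a sentence are log2 values of arrays 1 to 4 of each group.

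Olfr91 and Olfr92, neighbours of the MOR256 family at the start of the number series, fell least among the 14 but with narrow errors. Olfr91 read 8.33, 8.07, 8.23 and 8.21 in the cKO mice and 8.84, 8.87, 8.61 and 8.76 in the controls, a difference of -0.56 (SE 0.07, adjusted p 0.00464). Olfr92 read 7.81, 7.64, 7.79 and 7.93 against 8.24, 8.35, 8.24 and 8.38, a difference of -0.51 (SE 0.07, adjusted p 0.00482). In both genes the groups did not overlap, with cKO 2 lowest. The model of Olfr92 lies inside the span of the Olfr91 model in the gene table, so their signals may not be independent.

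Their neighbour Olfr90 is one of the receptors that the study followed in tissue sections, which came from older mice than these arrays. The study's text describes it as less often expressed where both Lhx2 and Emx2 were deleted, which is another genotype than here. On these arrays Olfr90 read 7.62, 6.80, 7.42 and 7.76 in the cKO mice and 8.43, 8.70, 8.40 and 8.33 in the controls. The groups were apart by 0.57 at their nearest values, with cKO 2 far below the other cKO arrays. The difference of -1.07 (SE 0.19) left 47.7% of the control level and stood just outside the threshold (adjusted p 0.0134). Without cKO 2 it was -0.87 and passed (adjusted p 0.00205).

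At the far end of the series, MOR256 members Olfr133, Olfr136 and Olfr137 fell too. Olfr133 read 6.59, 5.87, 6.49 and 6.57 in the cKO mice and 7.33, 7.43, 7.41 and 7.51 in the controls, a difference of -1.04 (SE 0.15, adjusted p 0.00613). Olfr136 had the lowest difference of all members, with cKO values between 6.41 and 7.67 against 8.68 to 8.98 in the controls (-1.55, SE 0.25, adjusted p 0.00972). Without cKO 2, the Olfr136 difference was -1.25 and still passed (adjusted p 0.000127). Olfr137 was one of the few genes in which cKO 2 was not the lowest array: it lay between 6.68 and 7.18 in the cKO mice and between 7.51 and 7.75 in the controls (-0.67, SE 0.11, adjusted p 0.00817). It no longer passed without cKO 2 (adjusted p 0.0111).

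The other 10 MOR256 members, Olfr90 included, did not pass. Olfr94 had the smallest difference of all members, -0.24 (SE 0.05, adjusted p 0.0382), although its groups did not overlap: the cKO values lay between 7.28 and 7.43 and the controls between 7.54 and 7.70. Olfr124, the septal organ receptor, gave cKO values of 7.25, 6.97, 7.72 and 7.27 and control values of 7.28, 7.80, 7.66 and 8.0. Its groups overlapped by 0.44, and the difference was -0.38 (SE 0.18, 95% confidence interval -0.79 to 0.03, adjusted p 0.384).

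All 3 measured genes of the MOR250 family fell. Olfr103 read 7.46, 7.35, 7.77 and 7.47 in the cKO mice and 8.55, 8.59, 8.02 and 8.50 in the controls, a difference of -0.90 (SE 0.14, adjusted p 0.0071). The gap between the groups was only 0.25, because control 3 lay well under the other controls, and without cKO 2 the gene did not pass (adjusted p 0.0109). Olfr109 read 8.02, 7.34, 7.94 and 7.98 against 8.77, 8.84, 8.74 and 8.69, a difference of -0.94 (SE 0.14, adjusted p 0.00688). Olfr101 lay between 6.24 and 7.25 in the cKO mice and between 8.04 and 8.64 in the controls, which is 38.2% of the control level (-1.39, SE 0.23, adjusted p 0.0096). MOR250 was the only family with more than 1 member of which every measured member passed. Its median of -0.94 was not lower than those of MOR218 (-0.97) and MOR156 (-1.14).

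The MOR156 family held both large and small differences. Olfr107 read 7.45, 6.66, 7.22 and 7.24 in the cKO mice and 8.49, 8.29, 8.24 and 8.67 in the controls, a difference of -1.28 (SE 0.16, adjusted p 0.00441). Olfr97 read 7.93, 7.19, 7.84 and 7.71 against 8.71, 8.66, 8.56 and 8.77, a difference of -1.01 (SE 0.15, adjusted p 0.00625). Both left 41.2% and 49.7% of the control level, respectively, with no overlap between the groups.

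Olfr99 differed by as much as Olfr107 but with a wide error. It read 8.28, 6.45, 7.93 and 8.15 in the cKO mice and 8.87, 9.23, 8.65 and 9.14 in the controls, a difference of -1.27 (SE 0.37, adjusted p 0.101). The value of cKO 2 lay far below the other cKO arrays, and without it the difference was -0.85 (adjusted p 0.0109). Olfr108 overlapped between the groups, with cKO values of 4.94 to 5.51 and control values of 5.36 to 5.52 (-0.26, SE 0.11, adjusted p 0.303). Its control mean of 5.43 was low, so a small difference says little. Of the 6 members with a control mean under 7, among them Olfr118, Olfr119 and Olfr127, 0 passed, at a median of -0.65. Of the 33 at 7 or more, 14 passed, at a median of -0.92. In the shared stretch printed above, Olfr99 and Olfr108 held both strings and did not pass, Olfr107 held TAATGA alone and Olfr97 held neither, and both of these fell. Over all members with a window, a homeodomain string stood in 1 of the 11 that fell and in 10 of the 20 that did not pass. Of these 10, Olfr108, Olfr118, Olfr119 and Olfr134 had control means under 7, as had Olfr127, whose window held no string. Without cKO 2, Olfr131 and Olfr132 of the 10 passed, and so did Olfr90, Olfr115, Olfr120 and Olfr130, whose windows held no string. The difference between the 11 and the 20 was seen after the calls were known and was not tested. Whether it follows signal level or the spread of the arrays was not tested either.

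Olfr113 and Olfr114, adjacent in number and both of the MOR218 family, fell as well. Olfr113 had the smallest p of all members: it read 7.36, 6.84, 7.05 and 7.11 in the cKO mice and 8.09, 7.92, 7.85 and 7.86 in the controls, a difference of -0.85 (SE 0.10, adjusted p 0.00414). Olfr114 read 7.83, 7.16, 7.78 and 7.69 against 8.63, 8.51, 8.43 and 8.59, a difference of -0.92 (SE 0.14, adjusted p 0.00676). The groups lay 0.50 apart in Olfr113 and 0.60 apart in Olfr114.

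The other MOR218 members had differences as large but did not pass. Olfr115 lay between 8.61 and 9.58 in the cKO mice and between 10.14 and 10.51 in the controls (-1.02, SE 0.20, adjusted p 0.0207). Olfr116 lay between 8.37 and 9.47 and between 9.86 and 10.24 (-0.96, SE 0.23, adjusted p 0.0437). Olfr127 spread widely within the controls, from 5.12 to 6.77, and lay between 4.30 and 5.03 in the cKO mice (-1.15, SE 0.36, adjusted p 0.138). In all 7 MOR218 genes every cKO array lay below every control array, and the family median of -0.97 equalled 51.1% of the control level.

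None of the 7 MOR263 genes passed at 0.01, and 4 passed at 0.05. Olfr129, which the study also followed in tissue sections, read 7.89, 7.28, 7.98 and 7.78 in the cKO mice and 8.39, 8.68, 8.21 and 8.63 in the controls, a difference of -0.75 (SE 0.16, adjusted p 0.0297). Its groups did not overlap, and 59.7% of the control level remained. Olfr95 stood just outside the threshold (-0.89, SE 0.15, adjusted p 0.0102). Olfr122 had a small difference of -0.38 (SE 0.09, adjusted p 0.0498), with its lowest value in cKO 4, and Olfr118 and Olfr119 overlapped between the groups.

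Olfr96 and Olfr110, each alone in its family here, fell. Olfr96 read 8.39, 7.39, 8.08 and 8.29 in the cKO mice and 9.42, 9.53, 9.40 and 9.29 in the controls, a difference of -1.37 (SE 0.19, adjusted p 0.00588), or 38.6% of the control level. The controls lay close together and the nearest values of the groups were 0.91 apart. Olfr110 lay between 6.80 and 7.51 against 8.11 to 8.35 (-0.96, SE 0.15, adjusted p 0.0082). Olfr111, which has no family name in the table, differed by -0.60 (SE 0.17, adjusted p 0.091).

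**Figure D2:**
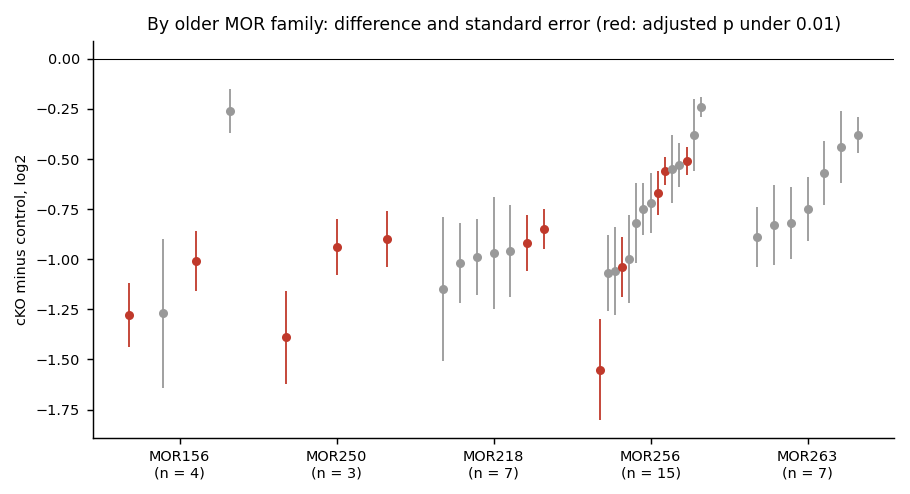
Difference cKO minus control on the log2 scale (y axis) of chromosome 17 OR genes, grouped by older MOR family (x axis) and ordered within it by size. Shown are families MOR156, MOR250, MOR218, MOR256 and MOR263, without Olfr96, Olfr110 and Olfr111. Bars are standard errors and red marks an adjusted p under 0.01. All 3 MOR250 genes and none of the 7 MOR263 genes are red, and no gene lies above 0.

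Along the number series the calls were uneven, while the medians of the stretches named next lay close together. Of Olfr90 to Olfr114, 11 of 19 measured genes fell, of Olfr115 to Olfr132, 0 of 16, and of Olfr133 to Olfr137, 3 of 4. The medians of these stretches were -0.92, -0.82 and -0.90, and the median standard errors 0.15, 0.19 and 0.14. The bounds were set after the values were seen, and no test was made between the stretches. In the stretch without a call, 9 of the 16 genes passed at 0.05 and all 16 differences were below 0, from -1.15 to -0.38. Cut instead at the non-OR genes Ubd, H2-M3 and H2-M2, the series had less even medians. They were -0.54 before Ubd (4 genes), -0.95 up to H2-M3 (4), -1.10 up to H2-M2 (6) and -0.83 after it (25).

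The pattern of calls changed with 1 array. Without cKO 2, 20 members fell, by stretch 12, 6 and 2, with a median difference of -0.75, where 3.3% of all genes fell. Of the 14 genes, 12 passed again, Olfr103 and Olfr137 did not, and 8 were added: Olfr90, Olfr112, Olfr115, Olfr116, Olfr120, Olfr130, Olfr131 and Olfr132. The median standard error of the 8 went from 0.20 to 0.10. Of the other OR genes, 50.1% fell without cKO 2, at a median of -0.71.

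**Figure D3:**
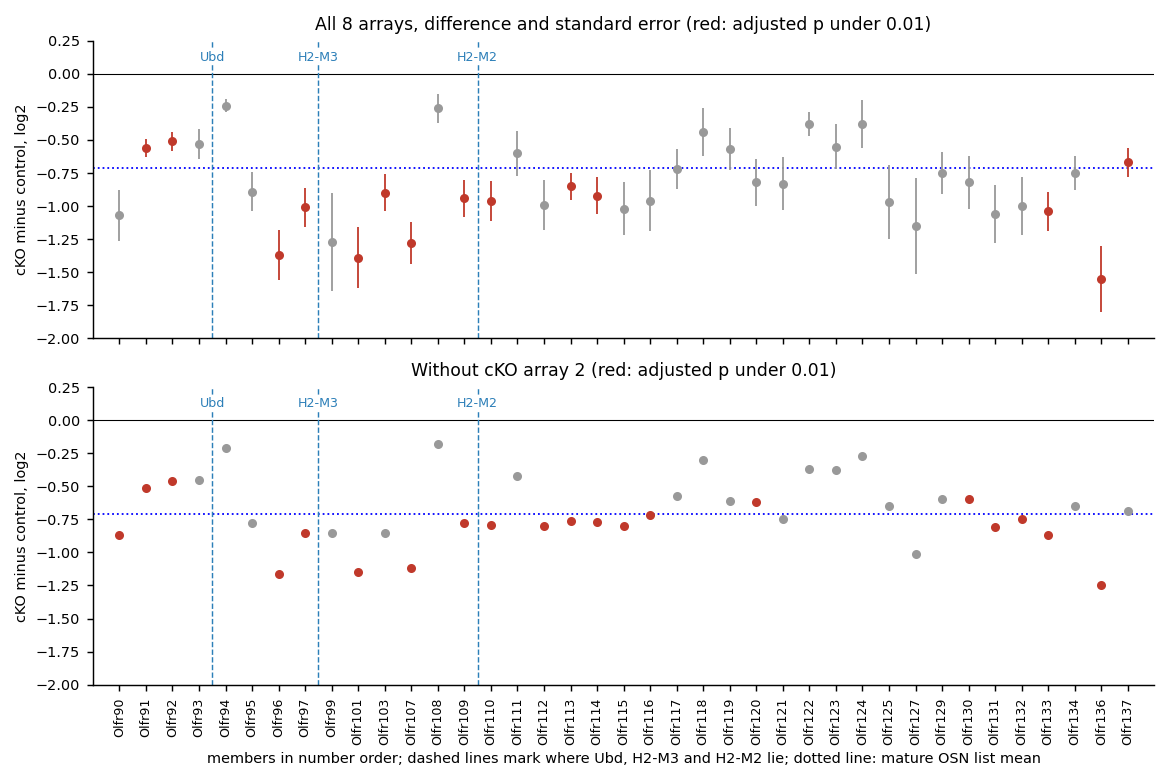
Difference cKO minus control on the log2 scale (y axis) of the 39 chromosome 17 OR genes in number order (x axis), with all 8 arrays and standard errors above and without cKO 2 below. Red marks an adjusted p under 0.01, dashed lines the places of Ubd, H2-M3 and H2-M2, and the dotted line the mean difference of mature OSN markers over all 8 arrays (-0.71). The run from Olfr115 to Olfr132 has no red point above and 6 below.

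The array of cKO 2 was the lowest of all 8 in 36 of the 39 members, the exceptions being Olfr119 (cKO 1), Olfr122 (cKO 4) and Olfr137 (cKO 3). Against its control mean, the median member read -1.38 in cKO 2 and -0.61, -0.65 and -0.78 in cKO 1, 3 and 4. The other OR genes gave -1.30 in cKO 2 and -0.60, -0.74 and -0.78 in the others. The median standard deviation of a member was 0.34 among the 4 cKO arrays, 0.15 without cKO 2 and 0.15 among the controls. The mature marker mean was also lowest in cKO 2 (-1.12 against the control mean), and Lhx2 too (12.55). Their part in the low OR values of this array was not tested. Without cKO 2, all 39 differences were still below 0, from -1.25 in Olfr136 to -0.18 in Olfr108.

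Titles of the arrays carry a letter whose meaning is not given. With letter A (3 cKO and 2 controls) the median member differed by -0.66 and with letter B (cKO 2 and 2 controls) by -1.41, and all 39 members were below 0 in each. With the letter as a fixed block 13 members fell: Olfr115 was added (-1.13, adjusted p 0.00558), which made 1 of 16 in the stretch from Olfr115 to Olfr132, and Olfr103 (adjusted p 0.0106) and Olfr137 (0.0112) were lost. With the letter as a random block 12 fell, Olfr101 and Olfr136 being lost (adjusted p 0.0106 each).

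The level of the members was set against that of mature OSN markers next, since both come from the same cells. The mean marker difference of -0.71 (38.7% lower) was subtracted from every OR gene. After that 0 members were lower at an adjusted p under 0.01 (1 without cKO 2, Olfr136), where 0.125% of all genes and 0.205% of the other OR genes were. At an unadjusted p under 0.05, 4 members were lower and 4 higher, by limma as by a t-test. At the adjusted threshold Olfr94 was higher, by 0.47 (adjusted p 0.00908), where 0.0753% of all genes and 1.13% of the other OR genes were. That call was lost when the markers were subtracted array by array, when their median was subtracted in place of their mean, or when any 1 array was left out. Relative to the markers, 27 members were below 0 and 12 above, with a median of -0.18, against -0.15 for the other OR genes. These counts rest on the constant: the 20 markers differed by -1.81 to -0.11 with a median of -0.59, and with nothing subtracted 14 members were lower. The study's own longer marker list, which by its report fell by less than this constant, was not used here. The constant entered without its own error, and the low cKO 2 values that markers and members share stayed in the spread. These adjusted p-values may therefore be too small or too large.

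The controls allowed a comparison of 123Cre:Lhx2(fl/+) with Lhx2(fl/+), 2 arrays each. No member passed (0 of 39, and 0 at an unadjusted p under 0.05 by limma), and the share was 0% of all genes and 0% of the other OR genes. The median was -0.11, against -0.05 for the other OR genes, with single members between -0.34 (Olfr95) and 0.29 (Olfr124). The 95% confidence intervals had a median half-width of 0.56, which limits what 2 arrays a genotype can show of a single gene. Genotype and title letter cannot be told apart among the controls.

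The genes between and around the OR genes were examined for the same shift. These genes have other functions: H2-M3 presents formylated peptides, Ubd is a ubiquitin-like modifier, H2-M10 proteins occur in vomeronasal neurons, Gabbr1 is a GABA-B receptor subunit and Mog belongs to myelin. Of 33 such genes, 29 were measured. None fell or rose at an adjusted p under 0.01, where 2.07% of all genes fell. At an unadjusted p under 0.05, 2 were lower by limma and 3 by a t-test. Their median difference was -0.05, against -0.89 for the OR genes among them. They ranged from -0.35 in H2-M10.3 (SE 0.19, adjusted p 0.462 by limma) to 0.19, so the lowest of them lay below Olfr94 (-0.24). Some of these genes read low, such as H2-M10.5 and H2-M1 with control means of 5.35 and 5.47. Vomeronasal receptor genes had a median level of 5.36 on these arrays. A gene so low could hardly show a fall.

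Between the first and the last member lie 3 measured genes that encode no OR. Ubd, between Olfr93 and Olfr94, differed by -0.10 (95% confidence interval -0.22 to 0.03). H2-M3, between Olfr98 and Olfr99, differed by 0.08 (-0.08 to 0.24), and H2-M2, between Olfr109 and Olfr110, by 0.00 (-0.13 to 0.13). Control means of Ubd, H2-M3 and H2-M2 were 6.16, 7.18 and 6.08. All lay below the lower quartile of mean level over all genes (7.52), which may limit how much of a fall they could show. The 6 members with a control mean under 7 still differed by -1.15 to -0.26, with a median of -0.65. Of the members on either side, Olfr93 and Olfr94 around Ubd differed by -0.53 and -0.24, Olfr99 next to H2-M3 by -1.27, and Olfr109 and Olfr110 around H2-M2 by -0.94 and -0.96. The interval of Olfr94 (-0.36 to -0.12) overlapped that of Ubd, and of these members Olfr109 and Olfr110 passed at 0.01 while Olfr93, Olfr94 and Olfr99 did not.

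Of the genes around them, Trim15 lay nearest to the threshold. It read 7.41, 7.21, 7.19 and 7.28 in the cKO mice and 7.58, 7.52, 7.54 and 7.51 in the controls, a difference of -0.27 (SE 0.06, adjusted p 0.0265), and passed without cKO 1 (-0.31, adjusted p 0.00928). Gabbr1 differed by -0.26 (SE 0.07, adjusted p 0.0815). Trim31 differed by 0.19 and Trim26 by -0.09, with adjusted p of 0.355 and 0.373.

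**Figure D4:**
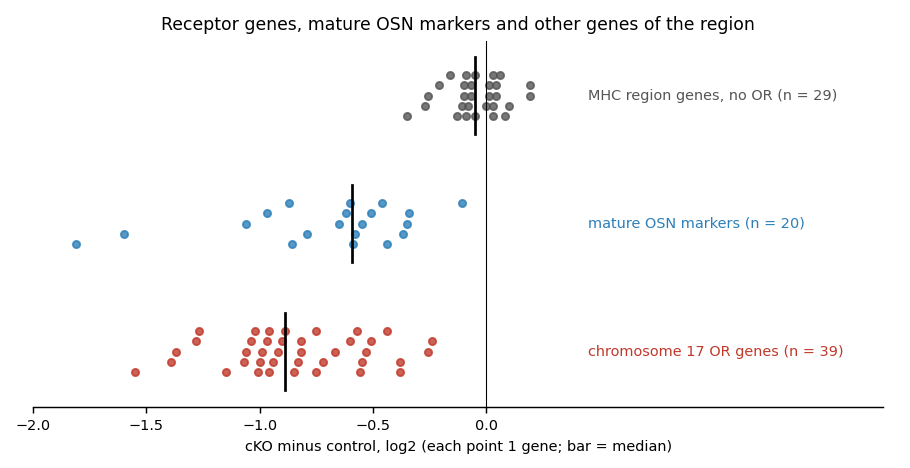
Difference cKO minus control on the log2 scale (x axis) of 39 chromosome 17 OR genes, 20 mature OSN markers and 29 MHC region genes without OR genes (rows). Each point is 1 gene and black bars are medians. The OR genes lie between -1.55 and -0.24, and the MHC region genes between -0.35 and 0.19 with a median of -0.05.

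Markers of other cells were examined beside these counts. Of the mature OSN list, 6 of 20 genes fell, among them Adcy3, the adenylyl cyclase of the odorant cascade (-0.86, SE 0.09, adjusted p 0.00267). In the immature OSN list 1 of 19 fell, Stmn4 (-0.30, SE 0.04, adjusted p 0.00447). At an unadjusted p under 0.05 by limma, 5 of the 19 were lower and 0 higher. Among them Nrp1 differed by -0.59 (SE 0.14, adjusted p 0.0437). Among markers of progenitor, proliferating and horizontal basal cells, of glial, immune, ciliated and blood cells, of supporting cells and glands, and of skeletal tissue, 0 genes fell and 0 rose. Of the progenitor markers, all 5 measured lay above 0, and 3 were higher at an unadjusted p under 0.05: Neurog1 by 0.16, Neurod1 by 0.15 and Kit by 0.16 (adjusted p 0.178, 0.292 and 0.0715). All 5 markers of dividing cells lay above 0 as well, by 0.12 to 0.13, with Mki67 under an unadjusted p of 0.05. At that level by limma, 2 of 5 ciliated cell markers were lower, Ccdc39 by 0.30 and Foxj1 by 0.16 (adjusted p 0.107 and 0.323). Of the 5 horizontal basal cell markers 1 was higher, Krt17 by 0.23 (adjusted p 0.307). Sustentacular markers averaged 13.19 to 13.26 in the cKO arrays and 13.18 to 13.25 in the controls.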

How the data were processed

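Per array, log2 values of 28312 transcript clusters were deposited, made by the authors with Affymetrix Expression Console. For its version, background correction and summarization, the settings were not given in the sources used here. Array medians lay between 8.82 and 8.89, and the number of arrays limits the precision. Replicates were separate mice. Clusters with 1 gene symbol were kept (21759), those with several (1605) or none (4948) left out, and the cluster with the highest mean stood for each gene. Differences were tested with limma 3.58.1 in R 4.3.3 (lmFit, eBayes, two-sided, Benjamini-Hochberg over 19928 genes), a script tested on simulated data. A t-test was an alternative, and a list of 20 mature OSN markers stood in for the study's longer list. The study's methods also use t-tests, but with normalization to mature OSNs. Members and lists were chosen with earlier results of these data known. Values are given on each array for the 10 members with the smallest p, Olfr90 and Olfr129, and statistics also for members past the threshold and those at the extremes. Array values of Olfr99 and Olfr124, statistics of Olfr95, Olfr99 and Olfr127, Olfr138 and the MOR156 stretch were added after values were seen. Promoter windows that begin at a start codon are not printed. Sequences and gene order are from RefSeq, GRCm38.p6.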

Additional observations from a re-analysis of the deposited data

Results flagged for a closer look

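In 12 of 86 groups of 4 arrays, 1 array lay farther from the others than Dixon's critical value at the 95% level allows. For a single group chance gives about 1 in 20. In 10 of the 12 the group was cKO, and in 9 of these cKO 2 was the lowest. The groups come from the same 8 arrays and are not independent, so 1 low array can be flagged in many genes. The gap, as a share of the group's range, was 0.874 for Olfr109, 0.897 for Olfr110, 0.84 for Olfr115, 0.937 for Olfr120, 0.97 for Olfr123, 0.86 for Olfr133, 0.857 for Olfr136, 0.971 for Lhx2 and 0.863 for Omp. In Olfr123, for example, cKO 2 read 6.82 and the others 7.49 to 7.51. In Olfr121 it was cKO 1 that stood highest (0.921), at 7.25 against 6.39 to 6.46. Among the controls, control 3 was the highest in Olfr94 (0.896), at 7.70 against 7.54 to 7.56, and the lowest in Olfr103 (0.839), at 8.02 against 8.50 to 8.59.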

How the results depend on the processing

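Every member measured kept a difference below 0 under the 18 settings tried: of 686 pairs of member and setting, 527 kept their side of the threshold, 21 gained a call, the rest lost one and 0 turned. The count of 14 that fell was 0 by a t-test on the deposited values (26 without adjustment at 0.01, 36 at 0.05). It was 0 with only the Lhx2(fl/+) controls, 0 with only the 123Cre:Lhx2(fl/+) controls and 29 at an adjusted p under 0.05. Leaving out 1 array gave 0 to 20: 14, 20, 0 and 1 without cKO 1 to 4, and 0, 0, 2 and 0 without controls 1 to 4. Each of the 14 passed at 0.01 in 1 to 3 of these 8 fits, and all 14 at 0.05 in all 8. Fewer arrays leave fewer degrees of freedom. The median difference stayed between -0.75 and -0.99 when arrays were left out. Relative to mature OSN markers, 1 member was lower without cKO 2 (0 to 1 over the 8), and the 1 higher became 0 with the markers subtracted array by array, 0 with their median subtracted (chosen after seeing the data), 0 by the t-test, and 0 without each array (0 to 0). For the MHC region genes the count of 0 became 1 without cKO 1 (0 to 1 over the 8) and 1 at an adjusted p under 0.05. Emx2 differed by 0.01 with only the Lhx2(fl/+) controls. No paired analysis was possible because replicate numbers were given in accession order and the labels do not say which mice were littermates.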

Other observations

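Genes of the range were also measured in 7 clusters that several genes share, which entered no test. Their differences lay between -0.82 and -1.32, and in 5 of the 7 every cKO array was below every control array. The cluster of Olfr133, Olfr134 and Olfr135 read 7.13, 5.90, 6.92 and 7.01 in the cKO mice and 8.14, 8.17, 7.92 and 8.0 in the controls. The cluster of Olfr100 and Olfr102 read 8.89, 8.18, 8.86 and 8.60 against 9.46, 9.72, 9.04 and 9.60.

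Olfr138 lies between Olfr136 and Olfr137 on the chromosome but outside the number range. It read 5.40, 4.62, 5.31 and 5.20 in the cKO mice and 6.04, 6.39, 6.06 and 6.26 in the controls, and fell by 1.06 (SE 0.16, adjusted p 0.00772 by limma).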
